A study of Mus musculus with 6 samples.

Results

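The 8 genes described here, Eomes, Btg2, Insm1, Gadd45g, Sstr2, Rnd2, Igsf8 and Tmem158, are genes linked to intermediate progenitors of the embryonic cortex. They were taken from the table by their symbols, and where a symbol has several rows, that of the highest mean normalized count was kept. All 8 were found among 12041 symbols, and all 8 passed the filter on low values. RNA came from the cortex of C57BL/6 mouse embryos at embryonic day 12.5. The 3 libraries of the wild-type (WT) group were compared with 3 libraries from embryos labelled Hdac1&2 cKO, a conditional deletion of the genes of both histone deacetylases, HDAC1 and HDAC2. Values by library are given in the order HC-1, HC-8, HC-10 for WT and HM-5, HM-13, HM-16 for cKO. The recombinase driver, the genotype of the WT embryos at the Hdac1 and Hdac2 loci, and litters are not stated in the labels. Separate embryos are not stated either, so p-values measure the spread between libraries, which may be in part technical.

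Intermediate progenitors are dividing cells that arise from radial glia of the ventricular zone, settle in the subventricular zone and divide to give glutamatergic neurons. The T-box transcription factor Eomes, also called Tbr2, is their defining marker. Proneural factors such as Neurog2 act before Eomes, and neuronal factors such as Tbr1 follow it. Insm1 is a zinc finger repressor that promotes the formation of these cells and is known to recruit the LSD1-CoREST complex, which contains HDAC1 or HDAC2. Btg2, also called Tis21, restrains proliferation and marks progenitors that are about to make neurons. In bulk tissue, fewer cells of a type and less RNA per cell cannot be told apart.

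The libraries hold 9712556 to 11922665 recovered reads over the rows of the table. Hdac1 ran from 193 to 212 FPKM (fragments scaled to transcript length and depth) in WT and from 45.5 to 61.0 FPKM in cKO. The Hdac2 row used ran from 134 to 272 FPKM in WT and from 37.6 to 61.7 FPKM in cKO. The other Hdac2 row (ENSMUST00000105510), from 230 to 286 reads, was not lower in cKO. It ran from 6.43 to 6.85 FPKM in WT and from 6.99 to 8.40 FPKM in cKO. HM-13 stood apart. The ribosomal RNA row Rn45s held 29.7% of its reads, against 0.506% to 2.48% in the other 5 libraries, and both Hdac1 and Hdac2 were highest there among the cKO libraries. Results whose call differed without HM-13 are therefore also given without it.

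The deposited rows are transcripts, and the level of a row need not be the level of its gene. Gapdh, a glycolytic enzyme abundant in every cell, has 1 row here, at 0.373 to 1.44 FPKM (6 to 23 reads), whereas the actin gene Actb is at 2230 to 2523 FPKM. Insm1, Btg2 and Tmem158 each have 1 transcript in GENCODE M21, so their rows cover the annotated gene. Eomes, Sstr2 and Rnd2 each have 2 rows in the table and 3 GENCODE transcripts. Igsf8 has 1 row and 8 transcripts, and Gadd45g has 1 row and 2 transcripts. Of the 2869 exonic bases of the Eomes transcript used, 132 lie in no other Eomes transcript, and for Igsf8 the numbers are 2278 and 124. For Gadd45g they are 1071 and 310, and for the Sstr2 transcript used 1537 and 0. The rule for reads shared between transcripts is not stated in the labels or the file. The order of levels between genes is therefore an order of rows.

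Promoters were available for 5 of the 8 genes (Eomes, Btg2, Gadd45g, Sstr2 and Igsf8) in the RefSeq table for GRCm38.p6. Those of Btg2, the gene that fell, of Gadd45g, the most abundant of the 8, which did not pass the test, and of Igsf8, whose level was higher in all 3 cKO libraries, are shown as the 250 bases before the start site. Capitals mark E-boxes (CANNTG, the motif that proneural bHLH factors bind) and the cyclic AMP response element (CRE) TGACGTCA. Both motifs were searched on both strands and did not overlap each other.
Btg2 (chr1:134079156-134079405, minus strand): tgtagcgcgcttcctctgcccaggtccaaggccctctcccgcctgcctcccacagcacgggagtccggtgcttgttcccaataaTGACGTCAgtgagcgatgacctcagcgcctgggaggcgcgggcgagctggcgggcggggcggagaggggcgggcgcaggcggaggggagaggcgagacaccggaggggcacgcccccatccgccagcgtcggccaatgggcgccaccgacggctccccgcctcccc
Gadd45g (chr13:51846425-51846674, plus strand): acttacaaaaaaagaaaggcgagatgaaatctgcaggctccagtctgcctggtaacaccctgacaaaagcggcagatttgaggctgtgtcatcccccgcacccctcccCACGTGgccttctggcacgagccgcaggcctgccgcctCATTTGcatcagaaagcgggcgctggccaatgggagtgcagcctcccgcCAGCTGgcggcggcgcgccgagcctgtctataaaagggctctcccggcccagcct
Igsf8 (chr1:172312117-172312366, plus strand): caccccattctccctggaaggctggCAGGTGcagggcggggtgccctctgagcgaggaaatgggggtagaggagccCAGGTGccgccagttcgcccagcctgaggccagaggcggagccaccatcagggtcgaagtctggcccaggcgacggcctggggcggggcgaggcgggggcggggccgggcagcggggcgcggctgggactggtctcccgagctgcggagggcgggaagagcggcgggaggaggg

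The Btg2 window holds 0 E-boxes and 1 CRE, the Gadd45g window 3 E-boxes and 0 CREs, and the Igsf8 window 2 E-boxes and 0 CREs. Of the other windows found, that of Sstr2 also holds 1 CRE, and those of Eomes and Sstr2 hold 0 E-boxes. Among 32851 promoter windows of the same length, 66.2% hold an E-box and 1.55% hold this CRE. The Btg2 and Igsf8 windows are rich in G and C (73.2% and 74.8%, against a median of 52.4% over all windows), with 27 and 21 CpG dinucleotides against a median of 6. Gadd45g, at 62.0%, also has a TATA box (TATAAA, both strands), found in 12.4% of windows, whereas Btg2 and Igsf8 have none. These matches describe the letters of the windows only.

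Of the 8 genes, 1 fell (Btg2) and 1 rose (Tmem158) in the cKO by limma's moderated test, with Benjamini-Hochberg adjusted p under 0.05. Over all 9359 genes tested, 18% passed in either direction, 8.39% lower and 9.62% higher, so 2 of 8 is near the background. The same 2 passed with voom on recovered reads, where 20.4% of all genes passed, and with library totals as scaling, where 5.31% did. The 3 cKO and 3 WT values did not overlap for 3 of the 8, Btg2, Igsf8 and Tmem158, against 39.1% of all genes tested. The median log2 fold change of the 8, on the log2(FPKM + 1) scale as throughout, was 0.06, and that of all genes tested was -0.01. Without HM-13, 4 of the 8 passed: Btg2 and Insm1 lower, Igsf8 and Tmem158 higher, where 19.4% of all genes passed.

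**Figure D1:**
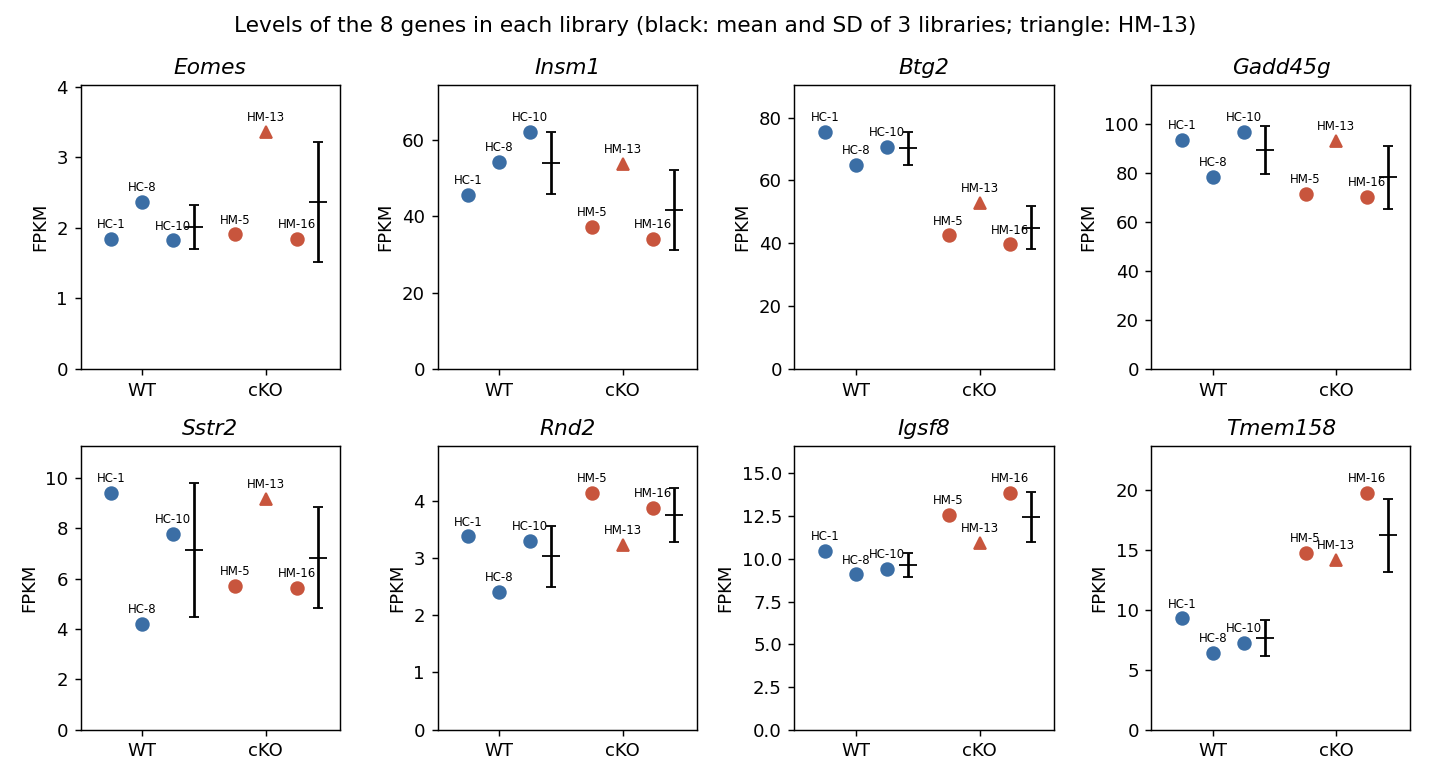
FPKM (vertical axes, from 0) of each of the 8 genes in the 3 WT libraries (blue) and the 3 cKO libraries (red, HM-13 as a triangle); black bars give the mean and SD of each group. The groups separate for Btg2, Igsf8 and Tmem158, and HM-13 is the highest cKO library for Eomes, Insm1, Btg2, Gadd45g and Sstr2.

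Eomes, the defining transcription factor (ENSMUST00000111763; chromosome 9, 118478212 to 118486132, GRCm38), did not pass the test. Its row had 1.84, 2.37 and 1.82 FPKM in WT, against 1.91, 3.35 and 1.84 FPKM in cKO. The cKO libraries HM-5 and HM-16 lay within the WT range and HM-13 lay above it. Means were 2.01 ± 0.31 FPKM in WT and 2.37 ± 0.86 FPKM in cKO (SD, n = 3 each; log2 fold change 0.14, SE 0.19, limma adjusted p = 0.642). The 95% interval ran from -0.30 to 0.57, which are ratios of FPKM + 1 of 0.81 and 1.49. At the 2.01 FPKM of WT, the matching ratios of FPKM itself lie further from 1, so these ends do not bound the change of level. With a pseudocount of 0.1 the log2 fold change was 0.18 (SE 0.26). All values of this row rest on 45 to 70 reads per library. The other Eomes row (ENSMUST00000035020) was lower still, at 0.281 to 0.656 FPKM from 11 to 21 reads, and HM-13 was again the highest. Without HM-13 the log2 fold change was -0.06 (adjusted p = 0.776).

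The sign of the Eomes fold change thus differed with and without HM-13. The genes whose pattern over the 6 libraries was most like that of Eomes, by Pearson's r of log2(FPKM + 1), were the replication-dependent histone genes Hist1h4c (r = 0.992), Hist1h4a (0.990) and Hist1h2bg (0.990). Such histone transcripts lack a poly(A) tail. Hist1h4c had 105 FPKM in HM-13 and 3.75 to 14.4 FPKM in the other 5 libraries. HM-13 was the highest library for Eomes and for all 3 histone genes, and the WT library HC-8 was the next. In HC-8, Eomes had 2.37 FPKM, Hist1h4c 14.4 FPKM, Hist1h4a 11.4 FPKM and Hist1h2bg 8.12 FPKM. The likeness was thus largest in HM-13 but was shared by HC-8. Rn45s reads were also most frequent in HM-13 (29.7%) and next in HC-8 (2.48%). The part of library composition in the Eomes values was not tested.

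Insm1, the zinc finger repressor (ENSMUST00000089257; chromosome 2, 146221921 to 146225020), is a gene of 1 exon with 1084 to 2095 reads per library. It had 45.7, 54.4 and 62.1 FPKM in WT, against 37.3, 53.8 and 34.0 FPKM in cKO. The cKO libraries HM-5 and HM-16 lay below all WT values, whereas HM-13 lay within the WT range. Means were 54.1 ± 8.20 and 41.7 ± 10.6 FPKM (77.1% of WT; log2 fold change -0.38, SE 0.18, limma adjusted p = 0.172). Without HM-13 it passed, with a log2 fold change of -0.58 (adjusted p = 0.0265). That was the 1 of 14 other settings in which it passed. Its log2 fold change ran from -0.58 to -0.26 over them (adjusted p up to 0.416). The authors' deposited table gives Insm1 a log2 fold change of -0.35 and an FDR of 0.0594.

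The genes most like Insm1 over the 6 libraries were Atl1, which encodes the membrane-shaping GTPase atlastin (r = 0.996), the homeobox gene Barhl2 (0.992) and the protease gene Pappa2 (0.989). Barhl2 had 4.61, 9.56 and 11.9 FPKM in WT, against 2.18, 7.17 and 1.72 FPKM in cKO. It shares with Insm1 the low value of HC-1 among the WT libraries and the high value of HM-13 among the cKO libraries.

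Btg2, the antiproliferative gene (ENSMUST00000020692; chromosome 1, 134075170 to 134079120), fell. It had 75.3, 64.9 and 70.6 FPKM in WT, against 42.5, 52.9 and 39.6 FPKM in cKO, from 1288 to 2612 reads per library. All 3 cKO values lay below all 3 WT values, and HM-13 was the nearest to WT. The mean went from 70.3 ± 5.23 to 45.0 ± 6.97 FPKM, 64.0% of WT (SD, n = 3 each; log2 fold change -0.64, SE 0.11, 95% interval -0.90 to -0.38, limma adjusted p = 0.0106). The fall was larger without HM-13 (-0.76, adjusted p = 0.0038). Without HM-5 its size was -0.60 and the adjusted p = 0.0527, in a fit that called 5.59% of genes.

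Btg2 held its call in 13 of 14 other settings, and its log2 fold change ran from -0.76 to -0.56 over them. The authors' deposited table gives -0.62 with an FDR of 6.4e-07. Its nearest genes in pattern were Pde1b, a cyclic nucleotide phosphodiesterase gene (r = 0.999), the mitochondrial ribosomal protein gene Mrpl37 (0.996) and Spdl1, a gene of chromosome alignment in mitosis (0.995). Pde1b stood at 3.05 ± 0.23 (WT) and 1.73 ± 0.36 FPKM (cKO). For Btg2, Insm1 and Eomes alike, the 3 genes of highest r over 6 libraries were picked from those tested. Their r values are therefore descriptions with no test.

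Gadd45g, a growth arrest gene that binds stress kinases (ENSMUST00000021903; chromosome 13, 51846678 to 51848468), had the highest level of the 8. It had 93.4, 78.3 and 96.5 FPKM in WT, against 71.3, 93.0 and 70.0 FPKM in cKO. The groups overlapped through HM-13 and HC-8. Means were 89.4 ± 9.76 and 78.1 ± 12.9 FPKM (87.4% of WT; log2 fold change -0.20, SE 0.13, 95% interval -0.49 to 0.10, limma adjusted p = 0.311). Without HM-13 the log2 fold change was -0.33 and still did not pass (adjusted p = 0.0608). In HM-13, Insm1, Btg2 and Gadd45g each lay nearer to the WT mean than in HM-5 and HM-16.

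Sstr2, a receptor for the peptide somatostatin (ENSMUST00000106630; chromosome 11, 113619342 to 113626028), varied as much within groups as between them. It had 9.40, 4.20 and 7.78 FPKM in WT, against 5.71, 9.17 and 5.63 FPKM in cKO, from 82 to 162 reads. The cKO values lay inside the WT range. The log2 fold change was -0.02 (SE 0.28, 95% interval -0.67 to 0.62, limma adjusted p = 0.962), and its sign differed between settings. The other row (ENSMUST00000146390) stood at 2.64 ± 0.97 (WT) and 3.27 ± 0.75 FPKM (cKO).

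Rnd2, a small GTPase that acts in the migration of newborn neurons (ENSMUST00000001347; chromosome 11, 101464999 to 101471853), rests on 19 to 32 reads per library. It had 3.38, 2.41 and 3.29 FPKM in WT, against 4.14, 3.22 and 3.88 FPKM in cKO. HM-13 lay within the WT range and the other cKO libraries lay above it. The log2 fold change was 0.24 (SE 0.14, 95% interval -0.09 to 0.57, limma adjusted p = 0.274). The other Rnd2 row (ENSMUST00000153185) stood at 1.23 ± 0.18 (WT) and 1.24 ± 0.41 FPKM (cKO).

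Igsf8, an immunoglobulin superfamily protein of the cell surface that binds tetraspanins (ENSMUST00000039506; chromosome 1, 172261641 to 172319841), had 10.5, 9.09 and 9.39 FPKM in WT. The values in HM-5, HM-13 and HM-16 were 12.6, 10.9 and 13.8 FPKM. All 3 cKO values lay above all 3 WT values, HM-13 by a small margin, from 215 to 333 reads per library. Means were 9.64 ± 0.72 and 12.5 ± 1.45 FPKM (1.29-fold; log2 fold change 0.33, SE 0.11, limma adjusted p = 0.0702), which did not pass. Without HM-13 it passed, at 0.42 (adjusted p = 0.0362), and the authors' deposited table gives 0.34 with an FDR of 0.0683. The fit without HM-13 was the 1 of 14 other settings in which Igsf8 passed. Its log2 fold change ran from 0.25 to 0.42 over them (adjusted p up to 0.706).

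Tmem158, a membrane protein gene known as a target of Ras signalling (ENSMUST00000068140; chromosome 9, 123259053 to 123260764), rose. It had 9.29, 6.43 and 7.26 FPKM in WT, against 14.7, 14.2 and 19.8 FPKM in cKO. The lowest cKO value lay well above the highest WT value, and HM-13 was close to HM-5. The mean went from 7.66 ± 1.47 to 16.2 ± 3.06 FPKM, a 2.12-fold change (SD, n = 3 each; log2 fold change 0.99, SE 0.16, 95% interval 0.61 to 1.37, limma adjusted p = 0.00826). It passed in all 14 other settings, with log2 fold changes from 0.74 to 1.12 and adjusted p of at most 0.0364. Like Insm1 it is a gene of 1 exon, and its row rests on 134 to 361 reads per library.

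**Figure D2:**
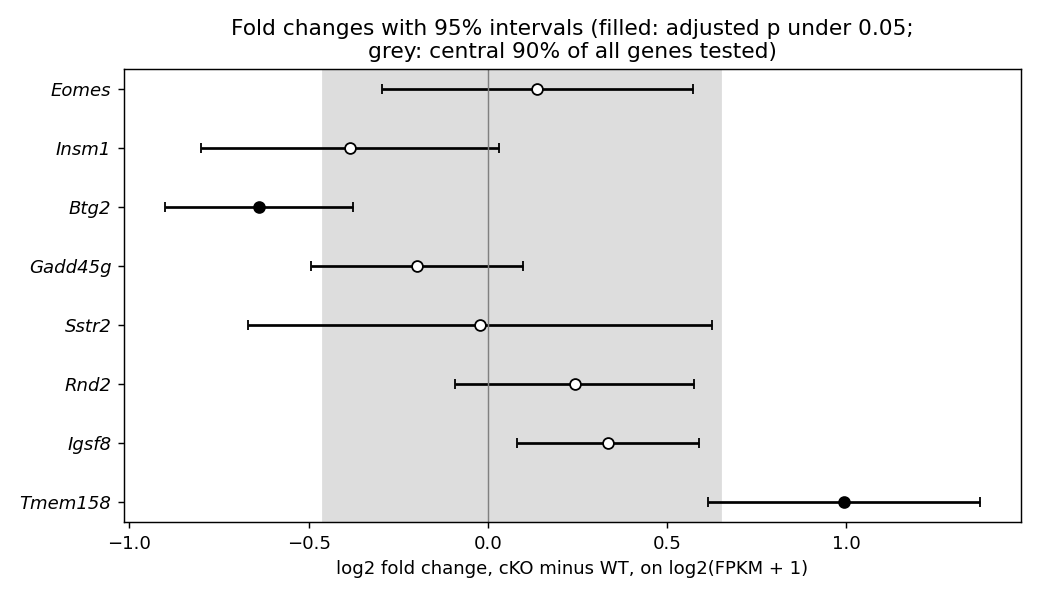
Log2 fold change (horizontal axis, cKO minus WT) of the 8 genes with 95% intervals from limma; filled points have an adjusted p under 0.05, and the grey band is the central 90% of all genes tested, from -0.46 to 0.65. Btg2 and Tmem158 lie outside the band, on opposite sides.

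In WT the order of levels per length was Gadd45g, Btg2, Insm1, Igsf8, Tmem158, Sstr2, Rnd2 and Eomes. The ranges of Igsf8 and Tmem158 overlapped, as did those of Tmem158 and Sstr2, and the other neighbours did not overlap. In cKO, Tmem158 stood above Igsf8 and the ranges of these neighbours did not overlap, whereas Btg2 and Insm1 overlapped. Rnd2 and Eomes overlapped as well. HM-13 was the highest cKO library for 5 of the 8 genes and the lowest for the other 3 (Rnd2, Igsf8 and Tmem158), and HC-8 was the lowest WT library for 6.

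**Figure D3:**
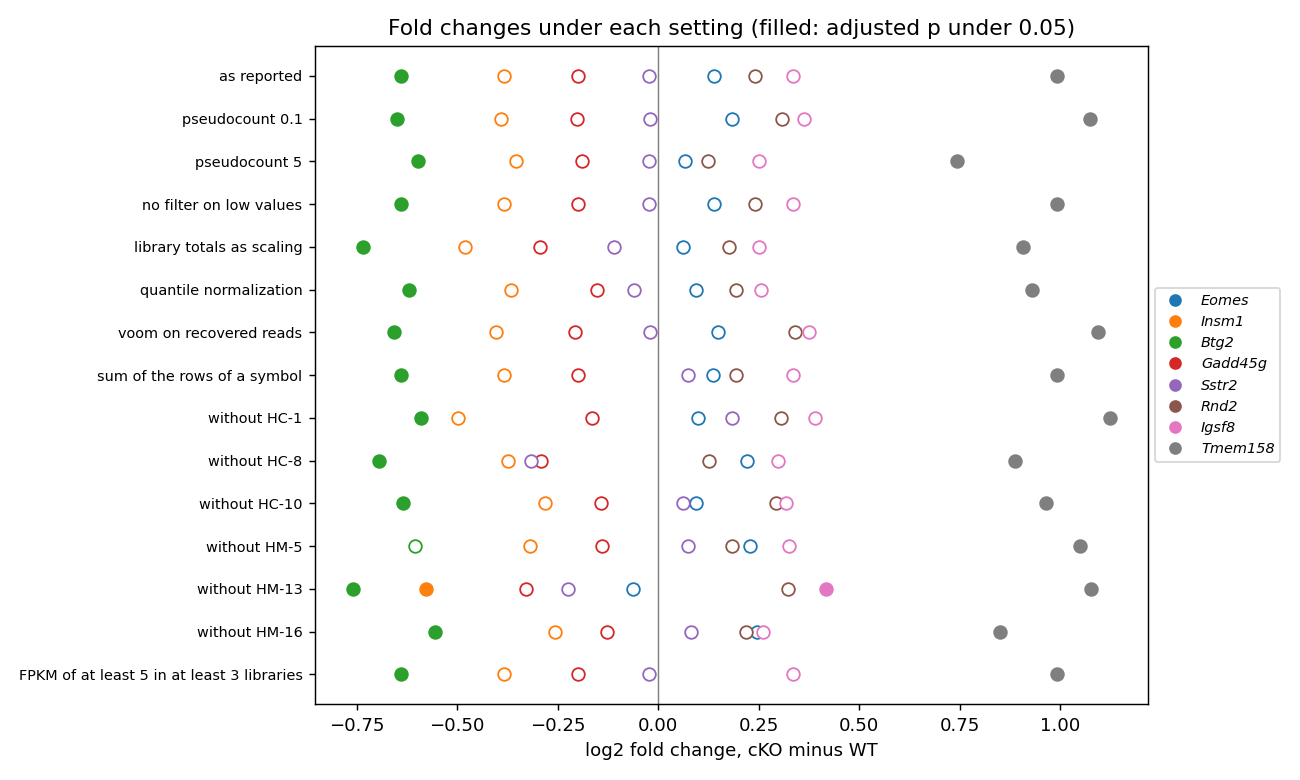
Log2 fold change (horizontal axis, cKO minus WT) of each gene, one colour per gene, under the reported fit and each other setting (vertical axis); filled points have an adjusted p under 0.05. Tmem158 is filled in every setting, Btg2 in all but the fit without HM-5, and Insm1 and Igsf8 only in the fit without HM-13.

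Other genes known from intermediate progenitors and cells entering the neuronal lineage gave no calls. Of 20 such genes listed, 14 have a row and 13 were tested. With limma 0 rose and 0 fell, 5 had an unadjusted p under 0.05, and their median log2 fold change was -0.12, with 8 of 13 below 0. Over all genes tested, 34.3% had an unadjusted p under 0.05 and 51.2% lay below 0, so 5 of 13 is near the background. The proneural factor gene Neurog2 had 140, 114 and 165 FPKM in WT, against 102, 129 and 99.9 FPKM in cKO (adjusted p = 0.155). HM-13 was again the cKO library nearest to WT. The Notch-modifying glycosyltransferase gene Mfng stood at 100.1 ± 6.65 (WT) and 116 ± 3.55 FPKM (cKO) (adjusted p = 0.0616). With voom 2 of 13 fell (Dll3 and Neurod4), where 867 of all 9359 genes tested fell. With library totals as scaling 1 fell (Neurod4), where 197 of 9361 genes fell. Without HM-13, 3 of 13 fell and 0 rose, where 812 of 9123 genes fell and 961 rose. These 3 were the Notch ligand gene Dll3 and the proneural factor genes Neurog1 and Neurod4, all named after their values were seen.

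Among transcription factors that act before Eomes, the homeobox gene Emx2 rose from 158 ± 13.7 to 240 ± 48.9 FPKM (log2 fold change 0.58, limma adjusted p = 0.036). It kept its call in 1 of the 6 fits that left out a library (adjusted p up to 0.129), and lost it with library totals as scaling (adjusted p = 0.211). Without HM-13, Sox11 of this list also passed, lower in cKO. Of 15 radial glia genes listed, 9 were tested. Pax6 has no row, and Nes and Slc1a3 were below the filter. Of the 9, 7 had an unadjusted p under 0.05, against 34.3% of all genes tested. Their median was 0.22, with 5 above 0 and 4 below. With limma 1 gene of this list passed: Fabp7, a fatty acid binding protein gene, fell (log2 fold change -1.44, adjusted p = 0.00643). Without HM-13, 3 others of this list rose, Hes1, Notch1 and Sox9, where 961 of all 9123 genes tested rose. These 3 were named after their values were seen. Of 10 projection neuron genes tested, 0 passed with limma, 4 had an unadjusted p under 0.05, and 9 lay below 0 with a median of -0.39, against 34.3% and 51.2% of all genes tested and their median of -0.01. With voom 2 fell, Gap43 (adjusted p = 0.0431) and Stmn2, genes of growing axons, where 867 of all 9359 genes tested fell. Without HM-13 5 fell, Tbr1 and Tubb3 among them, where 812 of 9123 genes fell. With library totals as scaling 3 fell (Gap43, Neurod6 and Stmn2), where 197 of 9361 genes fell. Gap43 stood at 114 ± 24.8 (WT) and 73.9 ± 19.3 FPKM (cKO), and Tubb3, a neuronal tubulin gene, at 907 ± 142 and 712 ± 159 FPKM (limma adjusted p = 0.176, and 0.035 without HM-13).

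Summed levels of the neuronal markers and of the 8 genes were set side by side. The summed level of 12 projection neuron genes with a row was 1199, 1262 and 1582 FPKM in WT, against 867, 1297 and 897 FPKM in cKO. The sum over the 8 genes of this report was 249, 222 and 259 FPKM in WT, against 190, 241 and 189 FPKM in cKO. In both sums HM-13 lay inside the WT range and the other cKO libraries lay below it. Gadd45g, Btg2 and Insm1 make up most of the sum over the 8, and Tubb3 makes up most of the neuron sum. Rnd2, Igsf8 and Tmem158 went the other way, with HM-13 the lowest cKO library. The part of neuron content in the values of Insm1, Btg2 and Gadd45g was not tested. Tbr1, the neuronal T-box gene that follows Eomes, had 98.2, 97.9 and 114 FPKM in WT, against 72.1, 102 and 72.2 FPKM in cKO (log2 fold change -0.35, limma adjusted p = 0.130). HM-13 lay within the WT range, and without it Tbr1 passed, lower in cKO (adjusted p = 0.0121).

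**Figure D4:**
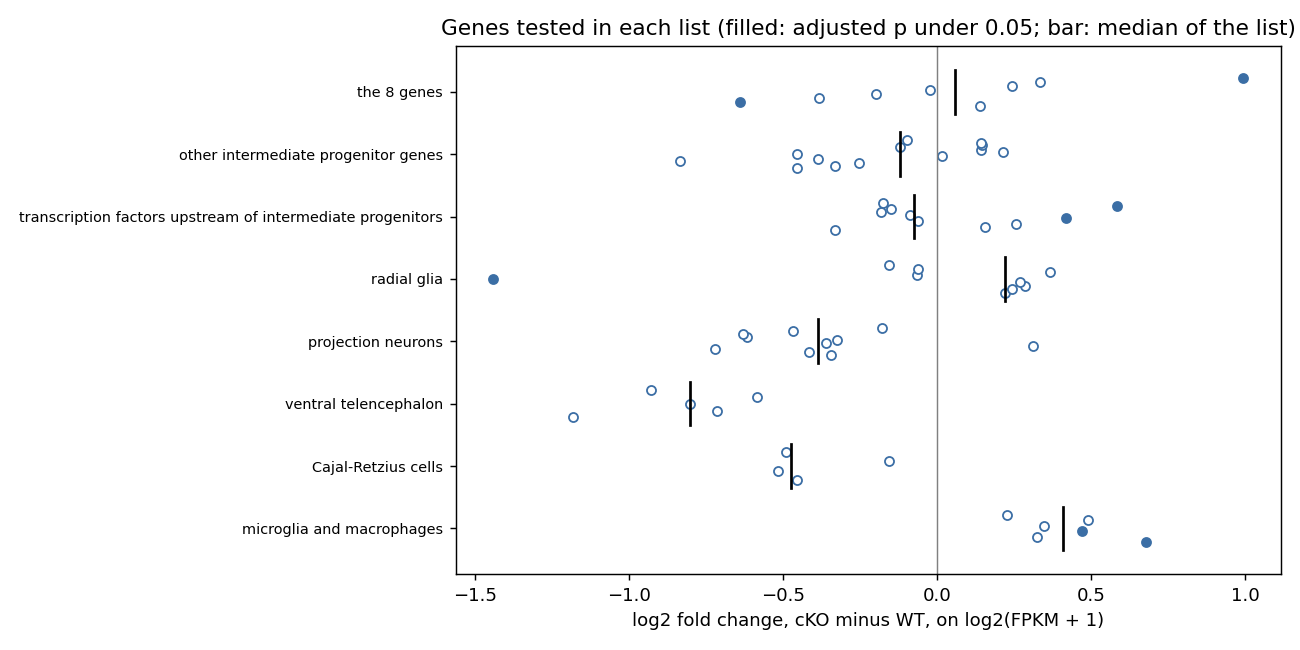
Log2 fold change (horizontal axis, cKO minus WT) of each gene tested in 8 lists (vertical axis); filled points have an adjusted p under 0.05 and the black bar is the median of the list. The 13 other intermediate progenitor genes hold no filled point. Medians lie below 0 for these genes and for the upstream transcription factors. They lie further below 0 for projection neuron, ventral and Cajal-Retzius genes.

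Relatives and partners of the 8 genes were tested in the same fit. Of 6 genes of the BTG and Tob family and their deadenylase partners, neither limma nor voom called any (0 calls). Of the 6, 2 had an unadjusted p under 0.05, against 34.3% of all genes tested. Btg1, the closest relative of Btg2, had 57.4, 42.2 and 51.4 FPKM in WT, against 38.7, 41.6 and 41.5 FPKM in cKO, a log2 fold change of -0.29 (limma adjusted p = 0.105). All 3 cKO values of Btg1 lay below all 3 WT values, by a small margin (41.6 FPKM in HM-13, 42.2 FPKM in HC-8). The groups did not overlap for 39.1% of all genes tested. Gadd45a, a relative of Gadd45g, rose from 16.1 ± 2.31 to 23.8 ± 2.86 FPKM (log2 fold change 0.54, limma adjusted p = 0.0276). It kept its call in 2 of the 6 fits that left out a library (adjusted p up to 0.111). With library totals as scaling it lost the call (adjusted p = 0.365). The difference between Gadd45a and Gadd45g was not tested.

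Rnd1, the relative of Rnd2, fell from 3.23 ± 0.42 to 1.34 ± 0.08 FPKM (log2 fold change -0.85, SE 0.12, limma adjusted p = 0.00485). It was 3.71, 2.92 and 3.07 FPKM in WT, against 1.32, 1.26 and 1.42 FPKM in cKO, so that HM-13 did not stand apart. Its call held in all 6 fits with 1 library left out. It was the 1 gene called among 7 tested of the Rnd family and plexins, where 18% of all genes tested passed. Without HM-13 the plexin gene Plxnd1 also passed, higher in cKO. Of 4 relatives and tetraspanin partners of Igsf8, 2 rose, where 9.62% of all genes tested rose. Igsf3, a relative, rose from 11.05 ± 1.25 to 18.6 ± 1.45 FPKM (log2 fold change 0.70, limma adjusted p = 0.00622), and the tetraspanin gene Cd9 rose from 30.4 ± 5.99 to 45.4 ± 2.29 FPKM (0.58, adjusted p = 0.023). Igsf3 held its call in all 6 fits with 1 library left out and Cd9 in 2, and with library totals as scaling neither passed (adjusted p = 0.154 and 0.278).

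Of 7 tested genes of the CoREST complex with which Insm1 works, the deleted Hdac1 and Hdac2 fell and 0 others passed; without HM-13 the corepressor gene Rcor1 also passed, higher in cKO. Of 4 tested T-box genes 0 passed with limma or voom; 1, Tbr1, had an unadjusted p under 0.05, and it passed without HM-13 as given above. Of 2 tested genes of somatostatin and its other receptors, neither limma nor voom called any (0 calls), and 0 had an unadjusted p under 0.05; the peptide gene Sst had 3.57 ± 5.33 and 4.09 ± 2.99 FPKM, and the receptor gene Sstr1 was at 1.08 ± 0.17 and 0.993 ± 0.484 FPKM.

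Btg2 is also known as a target of the stress factor p53 and as an immediate early gene. Of 15 p53 targets listed, 12 were tested, and the targets Cdkn1a and Mdm2 have no row. Of the 12, 3 rose (Sesn2, Bbc3 and Tnfrsf10b) and 0 fell, against 9.62% higher and 8.39% lower over all genes tested. The median was 0.18, with 10 above 0 and 2 below, whereas 51.2% of all genes tested lay below 0. Of the 12, 5 had an unadjusted p under 0.05, against 34.3% of all genes tested. Sesn2 held its call in all 6 fits with 1 library left out, Bbc3 in 5 and Tnfrsf10b in 3 (adjusted p up to 0.0772). With library totals as scaling Bbc3 lost its call (adjusted p = 0.360) and Pmaip1 passed, lower in cKO; without HM-13, and with voom, Zmat3 also rose. Sesn2, a stress-induced regulator of metabolism, rose from 2.97 ± 0.13 to 7.89 ± 1.94 FPKM (log2 fold change 1.14, limma adjusted p = 0.00611). Of 7 immediate early genes tested, 0 rose and 2 fell, where 8.39% of all genes tested fell. The 2 that fell were Ier5 (63.3 ± 5.48 to 50.05 ± 4.27 FPKM, adjusted p = 0.0392) and the phosphatase gene Dusp1 (23.7 ± 1.36 to 19.2 ± 1.33 FPKM, adjusted p = 0.0449), with a list median of 0.16. Ier5 kept its call in 0 of the 6 fits that left out a library (adjusted p up to 0.119) and Dusp1 in 1 (0.164). With library totals as scaling neither passed (adjusted p = 0.356 and 0.472).

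Markers of other cells in the dissected tissue varied between libraries. The summed level of 7 of 14 ventral telencephalon genes was 7.62, 67.9 and 49.7 FPKM in WT, against 1.97, 22.1 and 28.7 FPKM in cKO. Of 5 tested, neither limma nor voom called any (0 calls), and 0 had an unadjusted p under 0.05. All 5 lay below 0, with a median of -0.80. All 5 fell with library totals as scaling, where 197 of 9361 genes fell. The sum over 9 of 12 hem and choroid plexus genes was 44.9 to 372 FPKM in WT and 192 to 234 FPKM in cKO, with 0 of 9 called by limma or voom and 0 with an unadjusted p under 0.05. Dlx2, a ventral factor, had 22.8 ± 17.6 and 8.78 ± 6.39 FPKM. Ventral progenitors also make Insm1, Btg2 and Gadd45g, and their part in these values was not tested.

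The Cajal-Retzius sum (7 of 9 genes) was 23.5 to 32.2 FPKM in WT and 21.1 to 22.6 FPKM in cKO. Of 4 tested, neither limma nor voom called any (0 calls), and 2 had an unadjusted p under 0.05, against 34.3% of all genes tested. Of 6 microglia genes tested, 2 rose (Tyrobp and C1qb), where 9.62% of all genes tested rose. Tyrobp kept its call in 5 of the 6 fits that left out a library and C1qb in 3, and both lost it with library totals as scaling (adjusted p = 0.190 and 0.498). The sum over the 6 genes was 51.1 to 62.6 FPKM in WT and 69.1 to 81.0 FPKM in cKO. The remaining lists had 0 calls with limma or voom and 0 unadjusted p under 0.05. Their sums were 14506 to 19538 and 16557 to 24273 FPKM for 6 erythroid genes, 217 to 471 and 258 to 414 FPKM for 8 of 9 meningeal genes, and 73.5 to 133 and 102 to 130 FPKM for 5 of 9 endothelial genes. No marker with a row was under 0.1 FPKM in all 6 libraries.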

How the data were processed

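RNA sequencing of 3 WT and 3 cKO cortex samples was used. Per the submitters' processing notes, the tools include DESeq2 1.22.1, featureCounts 1.6.1, STAR 2.5.4b, bcl2fastq 1.8.4 and R 3.4.1, and the build is mm10. A TruSeq RNA kit was used, per the labels' protocols. The annotation, library strandedness and row filters are not stated. The authors deposited one table of 14379 rows with FPKM per library, per the file headers. It also holds the authors' mean normalized signal (baseMean), log2 fold change, p-value and FDR. Columns named HC were read as WT and those named HM as cKO; they carry no replicate number of the labels.

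FPKM was converted to reads with baseMean and a step per library, and 100% of values were whole within 0.001 of a read. The test was that of limma 3.58.1 (R 4.3.3) on log2(FPKM + 1), for genes that reach 1 FPKM in 3 or more libraries (intensity trend, group as the only term, Benjamini-Hochberg over all 9359 genes), after testing on simulated data. "Rose" and "fell" mean an adjusted p under 0.05, and log2 fold changes are cKO minus WT. The pseudocount understates changes of low genes; fold values beside mean FPKM carry none. Alternatives were the pseudocount, the filter, scaling, voom on recovered reads, summed rows and leaving out each library.

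The 8 genes and the lists were chosen with earlier results of these data known. Named are the 8, Hdac1 and Hdac2, in each list up to 4 called genes by p (or the 2 with the highest FPKM), and the 3 genes most like Eomes, Btg2 and Insm1 over 6 libraries; predicted genes were left out. Gapdh, Actb, Rn45s and genes called only in another setting were named after their values were seen. Pax6, Nes, Slc1a3, Cdkn1a and Mdm2, which were not tested, are named without values. Gene positions are from GENCODE M21 (GRCm38), and promoters from RefSeq. Results for 1 listed gene are not reported here.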

Additional observations from a re-analysis of the deposited data

How the results depend on the processing

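The count of 1685 changed genes was 497 with library totals as scaling, which place the reads of Rn45s in HM-13 in the total, and ran from 511 (without HM-5) to 1773 (without HM-13) with 1 library left out. It was 545 without HM-16, 888 without HC-10 and 1103 without HC-1. Of the 8 genes, 2 passed; with 1 library left out this ran from 1 (without HM-5) to 4 (without HM-13), and it was 2 in the other settings. Over the fixed lists 14 further genes passed, from 5 (without HM-5 or HM-16) to 28 (without HM-13). Among all genes tested 18% passed, and the share moved as well, to 5.59% without HM-5 and 19.4% without HM-13. The log2 fold change of Sstr2 changed sign with the rows of a symbol summed (0.074) and ran from -0.32 to 0.18 with 1 library left out, and that of Eomes ran from -0.062 (without HM-13) to 0.25. The causes were not tested. The other 6 genes kept their direction in each setting that tested them; Eomes and Rnd2 did not pass a filter of 5 FPKM. The rows of Rnd2, Eomes and Sstr2 rest on 19 to 32, 45 to 70 and 82 to 162 reads per library, which limits the precision of their values. No paired analysis was possible because the columns carry no replicate numbers of the labels.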

Other observations

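Ratios between genes within a library do not depend on how libraries are scaled. The pairs below were chosen after their values were seen, so they are descriptions with no test. The level of Btg2 was 80.6%, 82.9% and 73.2% of that of Gadd45g in the WT libraries, and 59.6%, 56.9% and 56.6% in HM-5, HM-13 and HM-16. The 3 cKO ratios lay close together and below all WT ratios, and HM-13 did not stand apart, although its levels of both genes were the highest of the cKO group. Btg2 was also lower relative to Neurog2 (51.1% ± 7.28 in WT and 40.8% ± 0.991 in cKO, SD, n = 3 each) and to Tbr1 (68.2% ± 7.67 and 55.2% ± 3.67), again with no overlap between the groups.

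The ratio of Btg2 to Insm1 itself overlapped between the groups, at 165%, 119% and 114% in WT and 114%, 98.3% and 116% in cKO. Insm1 was 48.9%, 69.5% and 64.4% of Gadd45g in WT and 52.2%, 57.8% and 48.6% in cKO, and 52.1% ± 4.90 of Tbr1 in WT against 50.5% ± 2.91 in cKO, with overlapping groups in both ratios. Relative to Neurog2 it was 39.3% ± 7.59 in WT and 37.4% ± 3.98 in cKO. Tmem158 stood at 88.9%, 70.8% and 77.3% of Igsf8 in WT and at 117%, 130% and 143% in HM-5, HM-13 and HM-16, with no overlap.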
